A study of Mus musculus with 2 samples.

Results

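*Asprv1*, *Grasp*, *Zmynd15*, *Ccnd2* and *Tctex1d2* are 5 of the 18049 genes listed for single dendritic cells (DCs) of mouse skin-draining lymph nodes. They were selected on these same libraries, as the genes with the lowest level in CD301b-high conventional type 2 DCs (cDC2s) relative to all other DCs of the papain library, among genes of at least 50 unique molecular identifiers (UMIs) per 1000000 (CPM) in the higher group and lower in both libraries. The study applied CITE-seq, which reads the mRNA and the DNA-barcoded surface antibodies of each cell, to live MHCIIhi CD11c+ B220- cells. One library came from unimmunized C57BL/6N (B6) mice (naive, 3471 cells), and the other from mice immunized 1 day earlier with 5 µg of ovalbumin plus 50 µg of papain, a protease allergen, in both rear footpads (papain, 7596 cells). The sample labels name skin-draining nodes and the series' own text popliteal nodes for both libraries, whereas by the study's methods the papain cells came from popliteal nodes and the naive cells from several skin-draining nodes, so node site and immunization cannot be told apart. The labels name no altered allele in either group. With 1 library per condition there was no test between conditions, and all intervals below are 95% exact intervals that cover counting error only.

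Conventional DCs that leave the skin carry antigen to the draining node and fall into cDC1s, which cross-present antigen to CD8+ T cells, cDC2s, which mainly present to CD4+ T cells, and the related Langerhans cells of the epidermis. CD301b (MGL2, encoded by *Mgl2*) is a C-type lectin found on a part of the dermal cDC2s. *Asprv1* encodes a retroviral-like aspartic protease known from the epidermis, where it processes filaggrin. *Grasp* encodes tamalin, a scaffold protein that binds cytohesins and glutamate receptors. *Zmynd15* encodes a MYND zinc finger protein known as a transcriptional repressor in the testis. *Ccnd2* encodes cyclin D2, a partner of the kinases CDK4 and CDK6 at entry into the cell cycle, and *Tctex1d2* encodes a light chain of the dynein-2 motor of cilia.

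In RefSeq on GRCm38.p6 (the build named mm10 in the submitters' processing notes), *Asprv1* lies at chr6:86628174-86629710, *Grasp* at chr15:101224207-101232756 and *Tctex1d2* at chr16:32419702-32429099. *Ccnd2* lies at chr6:127125162-127152188. *Zmynd15* lies at chr11:70459433-70466204, overlaps the neighbouring *Cxcl16* by 552 bases and lies 321890 bases from *Mgl2*. Sequence before the start site is shown for *Asprv1*, *Grasp* and *Tctex1d2*. *Zmynd15* and *Ccnd2* had no entry in the set of promoter windows used here, so none is shown for them. The 250 bases 5′ of each RefSeq start, on the gene's strand (+ for all), carry capitals at matches on either strand to a TATA box (letters TATAAA), a GC box (letters GGGCGG), the CCAAT box, an E-box (letters CACGTG) or an AP-1 site (letters TGACTCA):
Asprv1, chr6:86627924-86628173: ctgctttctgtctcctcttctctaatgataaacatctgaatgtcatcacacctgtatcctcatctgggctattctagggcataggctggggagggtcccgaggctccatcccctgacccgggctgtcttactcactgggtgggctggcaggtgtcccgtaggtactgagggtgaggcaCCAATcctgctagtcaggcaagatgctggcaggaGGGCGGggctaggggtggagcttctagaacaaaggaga
Grasp, chr15:101223957-101224206: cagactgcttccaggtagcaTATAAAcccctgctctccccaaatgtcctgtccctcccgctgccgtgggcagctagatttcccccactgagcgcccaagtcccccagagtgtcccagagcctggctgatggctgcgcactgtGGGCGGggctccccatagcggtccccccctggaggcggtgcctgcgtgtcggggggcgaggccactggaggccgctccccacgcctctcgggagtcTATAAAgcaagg
Tctex1d2, chr16:32419452-32419701: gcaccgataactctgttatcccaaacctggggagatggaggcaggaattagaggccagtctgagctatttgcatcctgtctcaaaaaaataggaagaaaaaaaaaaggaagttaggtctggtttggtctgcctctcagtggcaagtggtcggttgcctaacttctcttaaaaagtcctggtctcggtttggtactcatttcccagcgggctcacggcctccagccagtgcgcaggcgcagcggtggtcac
The *Asprv1* sequence held a GC box 38 bases and a CCAAT match 72 bases before the start. The *Grasp* sequence held TATA boxes 12 and 230 bases and a GC box 108 bases before the start. None of these letters was found in the *Tctex1d2* window. Of 32851 promoter windows of the same length, 12.4% held TATAAA, 32.7% GGGCGG, 33.8% CCAAT, 6.02% CACGTG and 4.46% TGACTCA, so the matches are common ones. The motifs were chosen after the sequences were seen.

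The authors assigned 3042 naive and 7306 papain cells to 5 classes by their antibody signals, which were CD301b-high (707 naive and 2893 papain cells), CD301b-intermediate (659 and 1827) and CD301b-low cDC2s (658 and 1470), cDC1s (578 and 235) and Langerhans cells, labelled LC (440 and 881). The libraries held medians of 13764 and 14738 UMIs per cell and shared 2 cell barcodes. Summed over each class, the cDC1 markers (*Xcr1*, *Clec9a*, *Irf8*, *Itgae* and *Cadm1*) were highest in cDC1s of both libraries at 624 and 863 CPM, and the Langerhans cell markers (*Epcam*, *Cd207*, *Mfge8* and *Ptgs1*) were highest in LCs at 807 and 564 CPM. *Mgl2* mRNA followed the CD301b classes in part in the naive library (56.1, 59.1 and 15.2 CPM in the high, intermediate and low class) and was near 0 in the papain library (1.21, 0.476 and 0.831 CPM). Of the 1392 *Mgl2* UMIs of naive cDC2s, 1348 lay in the 246 cells of 1 mRNA cluster, 1.5 (below), so these class levels rest on a few cells. T cell markers (*Cd3d*, *Cd3e*, *Trac*, *Trbc2* and *Lck*) summed to 10.3 to 49.9 CPM in the naive cDC2 and LC classes, 156 CPM in naive cDC1s and 9.1 to 22.8 CPM in the papain classes. The cDC2 markers summed to 129 to 259 CPM in the cDC2 classes and 35.8 to 83.8 CPM in cDC1s and LCs, B cell markers to 4.49 to 62.5 CPM in the 5 classes, and plasmacytoid DC markers to 153 to 290 CPM in the naive and 318 to 428 CPM in the papain classes. Of the keratinocyte and neutrophil markers 1 gene each was listed, at 1.60 to 4.33 CPM and at most 0.542 CPM.

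The 5 genes shared a low level in CD301b-high cDC2s but not the class that was high. *Asprv1* and *Zmynd15* were highest in cDC1s, *Grasp* and *Tctex1d2* were high in LCs and CD301b-low cDC2s, and *Ccnd2* was highest in CD301b-low cDC2s. The *Ccnd2* peak rested in part on single mRNA clusters (below). *Asprv1* had 7.09 CPM (5.63 to 8.82) in naive CD301b-high cDC2s, 7.06 in CD301b-intermediate cDC2s, 14.7 in CD301b-low cDC2s, 60.8 (54.3 to 67.8) in LCs and 174 (166 to 182) in cDC1s. In the papain library it had 5.40 (4.78 to 6.08), 14.2, 48.9, 20.8 (18.8 to 23.0) and 603 CPM (576 to 631) in the same order of classes. The naive CD301b-high and CD301b-intermediate levels did not differ beyond counting error, and the 2nd place passed from LCs in the naive to CD301b-low cDC2s in the papain library. In all, cDC1s were 19.0% of the classed naive cells and held 72.9% of the *Asprv1* UMIs of classed cells, and in the papain library 3.22% of the cells held 48.7% of these UMIs.

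*Zmynd15* was the most abundant of the 5. In the naive library it had 208 CPM (200 to 217) in CD301b-high, 232 in CD301b-intermediate and 224 (215 to 234) in CD301b-low cDC2s, 625 in LCs and 1117 (1096 to 1139) in cDC1s. In the papain library these levels were 186 (182 to 190), 215, 373 (365 to 382), 467 and 1055 (1019 to 1092) CPM. The naive cDC2 classes thus lay close together, with the CD301b-low class between the other 2, while in the papain library the CD301b-low class stood above them. *Cxcl16*, which overlaps *Zmynd15*, did not share its pattern, with 932, 864, 731, 944 and 789 CPM in the naive and 1001, 984, 1019, 922 and 1326 CPM in the papain classes in that order.

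*Grasp* had 33.5 CPM (30.2 to 37.0) in naive CD301b-high, 53.9 in CD301b-intermediate and 143 (135 to 151) in CD301b-low cDC2s, 276 (262 to 290) in LCs and 68.4 in cDC1s. The papain library gave 43.6 (41.8 to 45.4), 75.3, 181 (175 to 188), 276 (268 to 284) and 100 CPM, the same order of classes with no overlap of intervals between neighbours. *Tctex1d2* had 25.0 CPM (22.2 to 28.1), 29.6, 55.4 (50.7 to 60.4), 68.9 (62.0 to 76.3) and 22.9 (19.9 to 26.1) in the naive classes, again with cDC1s last. In the papain library it had 30.3 (28.8 to 31.8), 34.4, 75.7 (71.8 to 79.9), 74.2 (70.3 to 78.3) and 35.8 CPM. For *Tctex1d2* the intervals of the CD301b-high class and cDC1s overlapped in both libraries, those of the CD301b-high and CD301b-intermediate classes (26.4 to 33.1) in the naive library, and those of LCs and CD301b-low cDC2s in the papain library.

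*Ccnd2* had 23.6 CPM (20.9 to 26.6) in naive CD301b-high, 31.3 in CD301b-intermediate and 52.3 (47.8 to 57.2) in CD301b-low cDC2s, 9.97 (7.47 to 13.0) in LCs and 38.5 in cDC1s. The papain levels were 28.0 (26.6 to 29.5), 39.1, 86.0 (81.8 to 90.4), 46.7 (43.6 to 49.9) and 64.4 CPM. So CD301b-high cDC2s had the lowest level of each of the 5 genes in the papain library, which was the library that ranked them, with cDC1s overlapping for *Tctex1d2*. In the naive library they were lowest beyond counting error for *Grasp* and *Zmynd15*, and LCs were lower for *Ccnd2*, as were the naive cDC1s without a *Cd3e* or *Trac* UMI (15.1 CPM, 12.5 to 18.0).

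**Figure D1:**
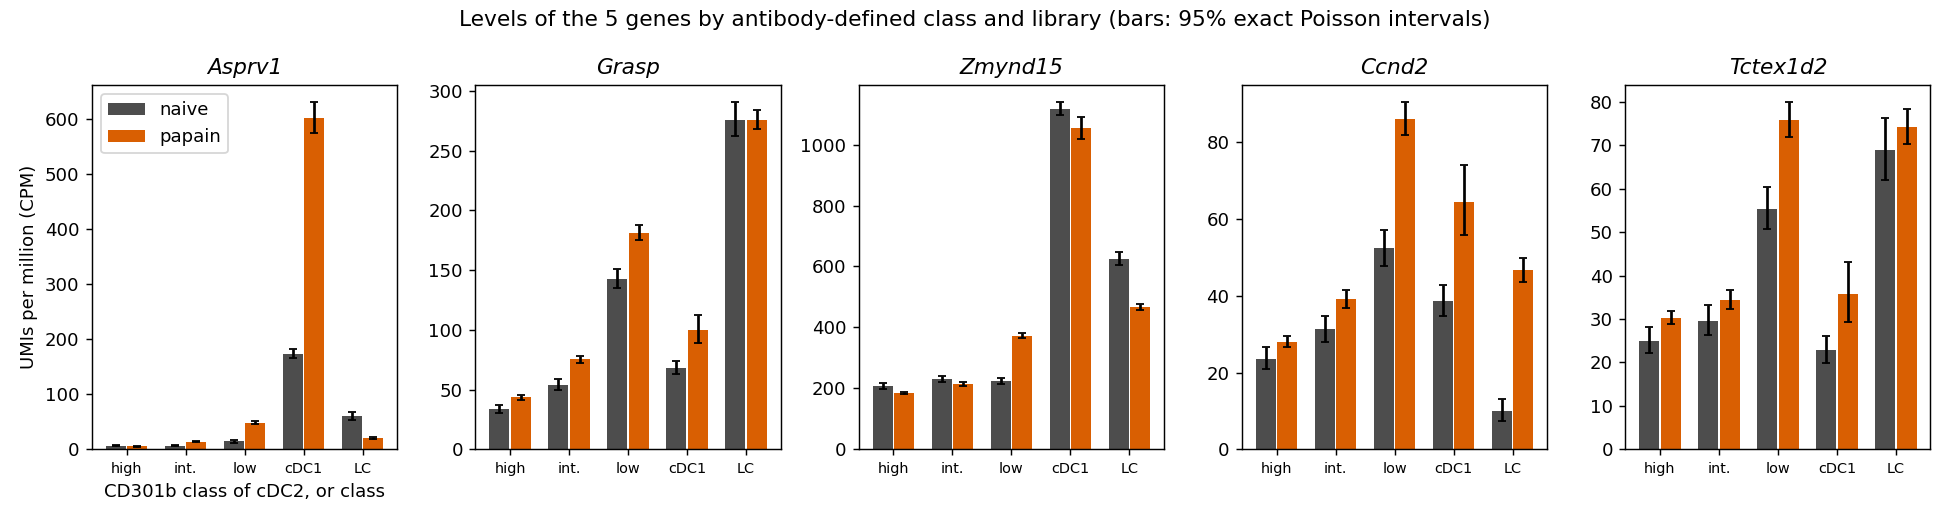
Level of each gene in CPM (y axis) in the 3 cDC2 classes, cDC1s and LCs (x axis), with naive in grey and papain in orange; bars are summed UMIs over summed depth and whiskers 95% exact Poisson intervals. *Asprv1* and *Zmynd15* peak in cDC1s, *Grasp* in LCs at 276 CPM in both libraries, and *Ccnd2* in CD301b-low cDC2s.

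Against all other classed DCs, the contrast that selected them, the levels in CD301b-high cDC2s were lower by 9.50-fold for *Asprv1* (8.40 to 10.8), 3.62-fold for *Grasp* (3.46 to 3.79), 1.95-fold for *Ccnd2* (1.83 to 2.07), 1.94-fold for *Zmynd15* (1.89 to 1.99) and 1.85-fold for *Tctex1d2* (1.74 to 1.96) in the papain library. In the naive library the same ratios were 8.95 (7.17 to 11.3), 3.47, 1.51, 2.57 and 1.63. The naive *Ccnd2* ratio was 1.15 without cells with a *Cd3e* or *Trac* UMI, and the naive *Asprv1* ratio rests on 81 UMIs in the CD301b-high cells. At the edge of the selection, the papain log2 ratio of CPM + 1 was -0.86 for *Tctex1d2*, the last gene inside, and -0.81 for *Crispld2*, the first outside. All 5 genes passed the 50 CPM filter in the papain library and were lower by 1.5-fold or more, where 0.901% of 2665 genes were. In the naive library 3 passed the filter and all 3 were lower (3.28% of 2625 genes). These counts follow from the selection and are given as a description.

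How steep the gradient was among the other cDC2s was read by comparing the CD301b-low with the CD301b-intermediate class, which leaves out the CD301b-high cells, although a gene high in the CD301b-low class was also more likely to be selected. In the papain library *Asprv1* was 3.45-fold higher in the CD301b-low class (3.07 to 3.89), *Grasp* 2.41-fold (2.28 to 2.54), *Ccnd2* 2.20-fold (2.04 to 2.37), *Tctex1d2* 2.20-fold (2.03 to 2.39) and *Zmynd15* 1.74-fold (1.68 to 1.80). Naive ratios were 2.65 for *Grasp* (2.399 to 2.93), 2.09 for *Asprv1* (1.56 to 2.81), 1.87 for *Tctex1d2* (1.62 to 2.16) and 1.67 for *Ccnd2* (1.45 to 1.93). The naive *Ccnd2* ratio rests in part on 34 CD301b-low cells of cluster 1.7 (below). They held 136 UMIs at 259 CPM, against 52.3 CPM in the whole class. The 12 CD301b-intermediate cells of that cluster stood at 126 CPM. The ratio without the cluster was not computed, so whether *Ccnd2* passes 1.5-fold without it was not tested. For *Zmynd15* the naive interval included 1 (0.967, 0.911 to 1.03), and without naive cluster 1.5, left out after its levels were seen, the ratio was 1.14 (1.07 to 1.21). Of the 4 genes that passed 50 CPM in each library, 4 were higher by 1.5-fold or more in the papain library, where 1.58% of 2653 genes were, and 3 in the naive library, where 2.54% of 2636 genes were. *Asprv1* was under the filter in both. *Ccnd2* and *Tctex1d2* reached 50 CPM only in the CD301b-low class, where they were higher. These counts thus follow in part from the filter and the selection and are given as a description. Without papain cluster 2.4 (below) *Grasp* was the only 1 of the 4 with a papain ratio above 1.5, at 1.68, and *Asprv1* was at 1.86.

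Within the CD301b-low class *Asprv1*, *Grasp* and *Tctex1d2* were lower at a higher CD301b antibody signal in both libraries, and *Zmynd15* and *Ccnd2* in the papain library. When the cells of this class were ranked by that signal and cut into 3 groups of equal size, naive *Grasp* stood at 225, 121 and 75.2 CPM from the lowest to the highest signal, a 2.996-fold difference between the ends (2.58 to 3.49), and papain *Grasp* at 233, 184 and 136 CPM. *Asprv1* stood at 20.9, 12.9 and 9.89 CPM in the naive and 81.6, 48.0 and 22.6 CPM in the papain library, and *Tctex1d2* at 64.8, 55.8 and 44.9 CPM and at 93.3, 86.8 and 51.9 CPM. *Zmynd15* went the opposite way in the naive library, at 199, 208 and 267 CPM, and fell in the papain library from 451 over 397 to 290 CPM. *Ccnd2* showed no order in the naive library (53.4, 39.1 and 64.0 CPM) and fell in the papain library from 104 over 97.3 to 61.9 CPM. The papain cells of lowest signal were also shallower, with a median of 10599.5 UMIs against 13019.5 at the highest signal. The class also mixed unlike mRNA clusters (below). Its naive cells of cluster 1.5 had *Grasp* at 258 and *Zmynd15* at 58.3 CPM, against 99.0 and 287 CPM in its other naive cells. Its papain cells of cluster 2.4 had *Asprv1* at 114 and *Ccnd2* at 196 CPM, against 24.2 and 44.5 CPM in its other papain cells. The part of depth or of cluster make-up in the slopes was not tested. Within the CD301b-high class the ends differed by less than 1.5-fold for *Grasp*, *Zmynd15*, *Ccnd2* and *Tctex1d2* in both libraries and by 2.82-fold (1.57 to 5.33) for the few *Asprv1* UMIs of the naive library.

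**Figure D2:**
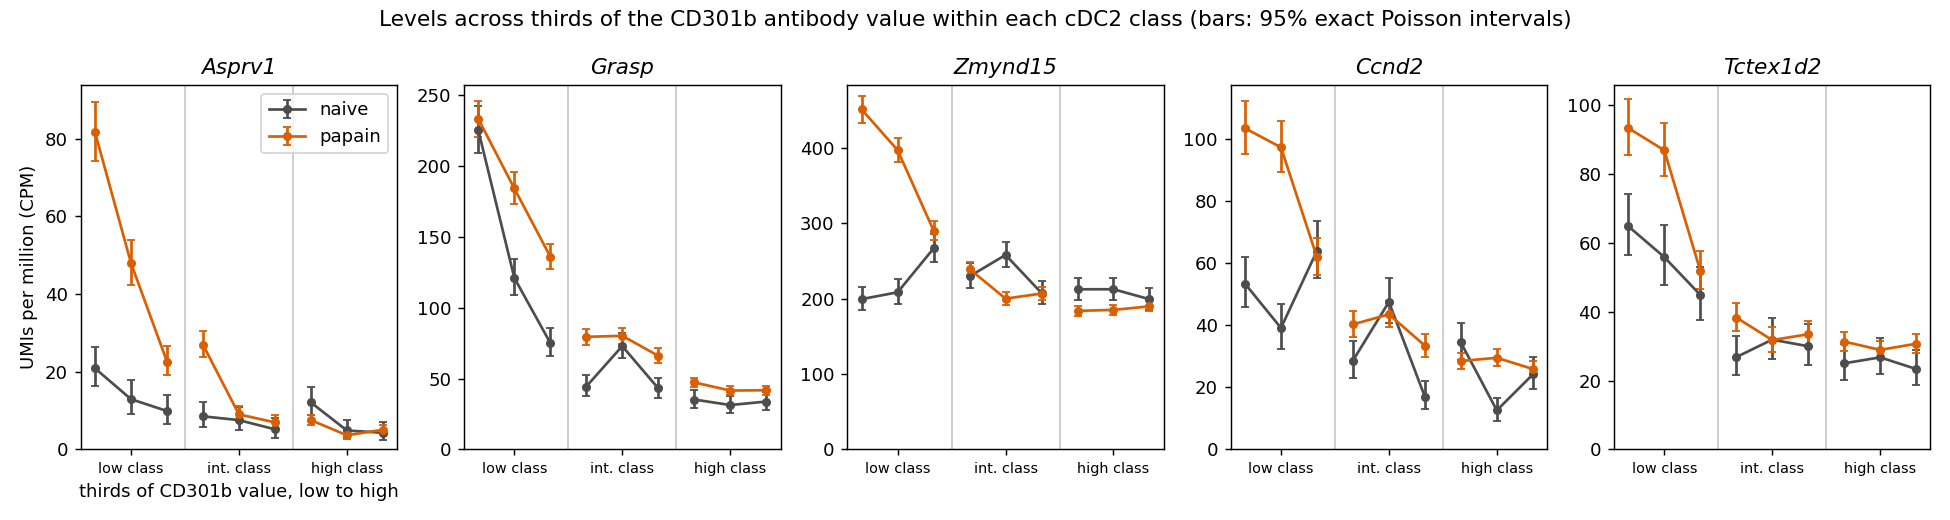
Level of each gene in CPM (y axis) over 3 groups of equal size ranked by the CD301b antibody signal within the CD301b-low, CD301b-intermediate and CD301b-high classes (x axis, low to high signal), with naive in grey and papain in orange and 95% exact Poisson intervals. In the CD301b-low class naive *Grasp* goes from 225 to 75.2 CPM, while naive *Zmynd15* rises from 199 to 267 CPM and naive *Ccnd2* has no order.

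The cDC2s also carried the authors' mRNA clusters (7 naive and 9 papain ones), which were built from all genes including these 5. One papain cluster, 2.4, held the highest cDC2 level of each gene in that library, with *Asprv1* at 100 CPM (92.3 to 108), *Grasp* at 314 (301 to 329), *Zmynd15* at 629 (609 to 649), *Ccnd2* at 188 (177 to 199) and *Tctex1d2* at 151 (142 to 161). The next cluster was 2.7 for *Asprv1*, *Grasp*, *Ccnd2* and *Tctex1d2*, at 37.6, 222, 49.0 and 43.3 CPM, and 2.3 for *Zmynd15* at 309 CPM. Cluster 2.4 had 671 cells, of which 527 were CD301b-low and 50 CD301b-high, and was shallow, with a median of 9131 UMIs. Its cDC1 markers summed to 444 CPM, against 84.7 to 311 CPM in the other papain cDC2 clusters and 863 CPM in papain cDC1s, and its B cell markers (*Cd79a*, *Cd79b*, *Ighm* and *Ms4a1*) to 48.8 CPM against 2.9 to 35.2 CPM; the part of either in these levels was not tested.

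Even the CD301b-high cells of cluster 2.4 were high in these genes. Their levels were 38.8 CPM (22.6 to 62.2) for *Asprv1*, 217 (176 to 265) for *Grasp*, 546 (479 to 620) for *Zmynd15*, 126 (94.7 to 164) for *Ccnd2* and 70.8 (48.1 to 101) for *Tctex1d2*, each above the whole CD301b-high class. The CD301b-low cells of the cluster stood higher again, at 114, 343, 651, 196 and 165 CPM in that order. Across the clusters with at least 20 cells of both classes (5 naive and 9 papain), the CD301b-low cells were above the CD301b-high cells in 4 and 9 for *Asprv1*, 5 and 8 for *Grasp*, 4 and 8 for *Zmynd15*, 3 and 8 for *Ccnd2* and 5 and 8 for *Tctex1d2*. The interval of that ratio lay above 1 in 3 and 7, 5 and 6, 2 and 7, 2 and 6, and 4 and 4 of them, and below 1 in none. CD301b-low cells are among the other DCs of the contrast that selected the genes. Both tallies therefore follow in part from the selection and are given as a description.

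Without cluster 2.4, an alternative added after its levels were seen, the papain CD301b-low class kept a smaller excess over the CD301b-intermediate class. The ratios were 1.86 (1.60 to 2.17) for *Asprv1*, 1.68 (1.58 to 1.80) for *Grasp*, 1.31 (1.26 to 1.37) for *Zmynd15*, 1.31 (1.18 to 1.46) for *Tctex1d2* and 1.27 (1.15 to 1.41) for *Ccnd2*. Other clusters separated the genes from each other. Naive cluster 1.5 joined a high *Grasp* level (180 CPM) to the lowest *Zmynd15* level of any cDC2 cluster (67.7 CPM). It stood apart from the other naive clusters, with *Lyz2*, the lysozyme gene of macrophages and monocytes, at 3763 CPM against 9.96 to 147 CPM. Its migratory DC markers (*Ccr7*, *Fscn1*, *Ccl22* and *Cacnb3*) summed to 2176 CPM against 5221 to 14545 CPM. Papain cluster 2.6 had almost no *Grasp* (5.87 CPM, 3.96 to 8.39) but 261 CPM of *Zmynd15*, and its migratory DC markers summed to 5111 CPM, the lowest of the papain clusters, which reached 12392 CPM.

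**Figure D3:**
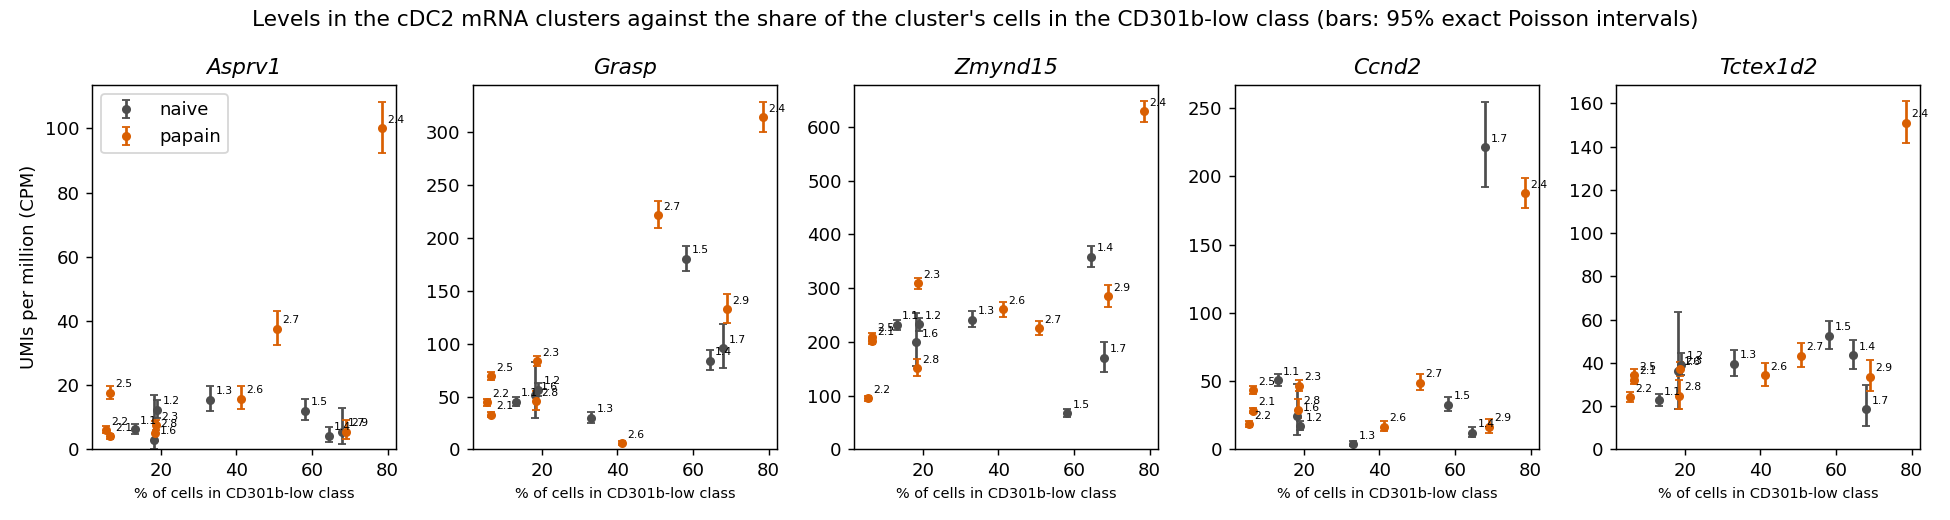
Level of each gene in CPM (y axis) in each cDC2 mRNA cluster, labelled by its number, against the percent of the cluster's cells in the CD301b-low class (x axis), with naive in grey, papain in orange and 95% exact Poisson intervals. Papain cluster 2.4 is the highest papain point in every panel, and naive cluster 1.7, with 221 CPM, is the highest point for *Ccnd2*.

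Between the libraries the 5 genes moved differently from class to class. The median gene of at least 50 CPM was itself higher in the papain library by 0.09 to 0.12 on the log2 scale, or 1.07-fold to 1.09-fold. *Asprv1* was 3.47-fold higher in papain than in naive cDC1s (3.24 to 3.71) and 3.32-fold higher in CD301b-low cDC2s (2.76 to 4.001), but it was 2.92-fold lower in LCs (2.51 to 3.39). Relative to the median gene these ratios were 3.25, 3.08 and 0.315. The difference in direction between cDC1s and LCs was not tested, as each rests on the same pair of libraries. In CD301b-high cDC2s *Asprv1* was low in both libraries, at 273 UMIs in 2893 papain and 81 UMIs in 707 naive cells, and the papain level was 0.761 of the naive one (0.592 to 0.988), or 0.704 relative to the median gene.

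*Ccnd2* was 4.68-fold higher in papain LCs (3.55 to 6.31), on 857 UMIs against 53 in the naive LCs, and 1.67-fold higher in cDC1s (1.40 to 1.99) and 1.64-fold in CD301b-low cDC2s (1.48 to 1.82). The cDC1 ratio was 4.34 without cells with a *Cd3e* or *Trac* UMI, and the CD301b-low ratio 0.850 without cluster 2.4. *Zmynd15* was 1.67-fold higher in CD301b-low cDC2s (1.59 to 1.75) and lower in LCs, at 0.747 of the naive level (0.717 to 0.777). *Grasp* was at the same level in the LCs of both libraries (1.00, 0.943 to 1.06) and 1.27-fold to 1.47-fold higher in papain cells of the other classes. *Tctex1d2* differed by 1.57-fold in cDC1s (1.23 to 1.98) and by 1.08-fold to 1.37-fold elsewhere. Relative to the median gene the intervals of *Ccnd2* (0.961 to 1.25) and *Tctex1d2* (0.985 to 1.27) in CD301b-high cDC2s included 1. So did that of *Tctex1d2* in CD301b-intermediate cDC2s (0.947 to 1.23). In LCs the *Tctex1d2* ratio of 1.08 fell to 0.990 (0.881 to 1.11) and that of *Grasp* to 0.918 relative to the median gene.

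Only the genes of at least 50 CPM in a class were counted against the background. None of 1 in CD301b-high and none of 2 in CD301b-intermediate cDC2s changed by 1.5-fold or more, where 21.4% and 23.5% of all such genes did. In CD301b-low cDC2s 2 of 4 did (*Zmynd15* and *Ccnd2*, both higher, against 26.8%), in cDC1s 2 of 4 (*Asprv1* and *Ccnd2*, both higher, against 19.0%) and in LCs 1 of 4 (*Asprv1*, lower, against 25.8%). With 1 to 4 genes per class these shares cannot be set apart from the background.

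The higher papain levels in CD301b-low cDC2s were smaller or gone without cluster 2.4. This cluster was picked after its levels, the highest of the papain cDC2 clusters, were seen. Leaving it out therefore had to lower each ratio, while the naive cells were all kept. That cluster held 527 of the 1470 papain cells of the class, whereas the naive cells lay mainly in clusters 1.4, 1.3 and 1.5 (176, 143 and 143 of 658). With its cells left out, the papain to naive ratio fell to 1.64 (1.34 to 2.02) for *Asprv1* and 1.20 (1.13 to 1.26) for *Zmynd15*. It turned below 1 for *Grasp* (0.842, 0.782 to 0.907), *Ccnd2* (0.850, 0.752 to 0.961) and *Tctex1d2* (0.758, 0.671 to 0.857). Without naive cluster 1.5 instead, the ratio in this class was 4.08 for *Asprv1* (3.25 to 5.20), 1.83 for *Grasp* (1.69 to 1.995), 1.56 for *Tctex1d2* (1.38 to 1.77), 1.49 for *Ccnd2* (1.33 to 1.67) and 1.30 for *Zmynd15* (1.24 to 1.37).

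**Figure D4:**
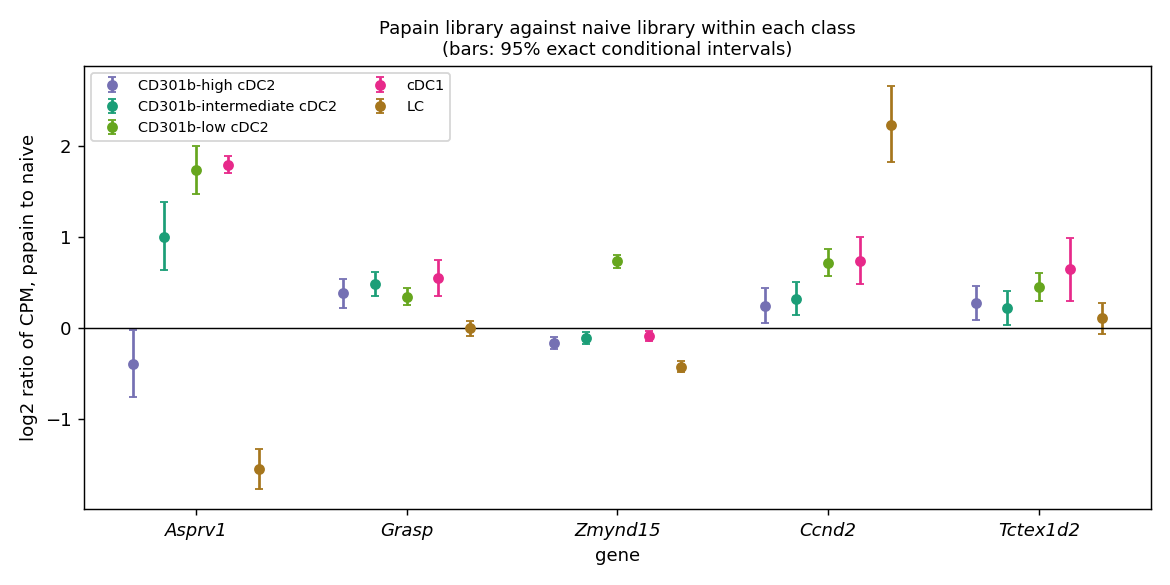
Log2 ratio of the papain to the naive level in CPM (y axis) for each gene (x axis) within each class, with 95% exact conditional intervals; 0 means equal levels. *Asprv1* lies above 0 in cDC1s and CD301b-low cDC2s and below 0 in LCs, and *Ccnd2* in LCs lies highest, at 2.23.

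The share of cells with a UMI followed the levels. *Asprv1* had a UMI in 4.67% (3.23 to 6.49) of the naive CD301b-high cDC2s and in 4.63% (3.89 to 5.46) of the papain ones, and in 38.9% (34.9 to 43.0) and 63.0% (56.5 to 69.2) of cDC1s. When each cell was thinned to 8392 UMIs these shares were 3.21%, 2.89%, 33.2% and 57.7%, with 55, 137, 47 and 28 shallower cells left out. Droplets without an antibody class that carried T cell receptor transcripts, served for comparison, with medians of 7626 and 6980 UMIs. Among the 237 naive droplets 4.64% (2.34 to 8.15) held *Asprv1*, and among the 241 papain droplets 0.41% (0.011 to 2.29). The naive share in CD301b-high cDC2s was no higher than that of these droplets, and the papain share was higher. The droplets also held migratory DC markers at 2531 and 1808 CPM, so they are no clean measure of free RNA. Where *Asprv1* was seen, a papain cDC1 carried 12.5 UMIs of it on average and up to 72, and a papain CD301b-high cDC2 2.04.

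*Zmynd15* was seen in 69.7% of naive and 63.3% of papain CD301b-high cDC2s and in 92.2% to 95.01% of the cDC1s and LCs of both libraries, against 12.7% and 5.81% of the T cell droplets. *Grasp* rose from 23.1% and 31.0% of CD301b-high cells to 71.6% and 84.1% of LCs, against 14.8% and 10.8% of the T cell droplets. Median depths of the classes ran from 10767.5 to 18290 UMIs per cell.

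Pairs of these genes were compared within cells of 8392 to 16784 UMIs. This was done in each class and library, and only some pairs and classes are given here. In CD301b-low cDC2s *Tctex1d2* was seen in 54.8% (47.4 to 62.1) of naive cells with *Grasp* against 39.4% (33.0 to 46.0) of those without, and in 56.4% (52.1 to 60.6) against 37.3% (32.8 to 41.9) of papain cells. In LCs the shares were 52.9% against 53.6% in the naive and 56.9% (49.7 to 64.0) against 39.1% (27.1 to 52.1) in the papain library. *Zmynd15* was seen in each of the 111 naive cDC1s with *Asprv1* and in 84.2% (77.9 to 89.3) of the 171 without, while in papain cDC1s the shares were 91.2% and 93.4%, with overlapping intervals. In papain CD301b-low cDC2s they were 80.4% (73.3 to 86.3) and 70.1% (66.9 to 73.2). *Ccnd2* was seen in 6.31% (2.57 to 12.6) of naive cDC1s with *Asprv1* and in 22.8% (16.7 to 29.8) of those without. Papain CD301b-low cDC2s went the other way, with 44.3% (36.4 to 52.4) and 32.7% (29.5 to 35.9).

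The cDC1s themselves were graded in *Asprv1*. Ranked by the CD11b antibody, whose listed barcode was the same as that of CD24 so that the 2 cannot be told apart, naive cDC1s rose from 77.6 over 167 to 284 CPM from the lowest to the highest of 3 groups (3.66-fold, 3.18 to 4.23). Papain cDC1s rose from 331 over 627 to 953 CPM (2.88-fold, 2.55 to 3.25). Such groups were made for each of the 12 antibodies, and for cDC1s only this antibody is given, so it was picked from 12. The part of depth was not tested. *Zmynd15* did not share this grading, with 943, 1262 and 1150 CPM in the naive and 1213, 999.6 and 900.0 CPM in the papain groups.

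*Ccnd2* moved with T cell transcripts in some groups of cells. In naive cDC1s it had 166 CPM (146 to 188) in the 78 cells with a *Cd3e* or *Trac* UMI and 15.1 CPM (12.5 to 18.0) in the 500 without, whose T cell markers summed to 961 and 8.2 CPM. In papain cDC1s the 224 cells without such a UMI had 65.5 CPM (56.5 to 75.5), so that without these cells the papain to naive difference in cDC1s grew from 0.74 to 2.12 on the log2 scale. Without them the naive ratio of CD301b-high cDC2s to other DCs for *Ccnd2* moved from -0.59 to -0.20. Naive cDC2 cluster 1.7, with 50 cells and T cell markers at 742 CPM, had 198 CPM (163 to 237) of *Ccnd2* in cells with and 263 CPM (211 to 324) in cells without a *Cd3e* or *Trac* UMI. The cells without such a UMI still had T cell markers at 145 CPM, of which *Trbc2* was 103 CPM, and B cell markers at 314 CPM; the part of either was not tested. In papain cluster 2.4 the T cell markers summed to 5.3 CPM, the lowest of the 9 papain clusters, at a *Ccnd2* level of 188 CPM.

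Few genes of the same families passed the 1.5-fold threshold between classes. Of all genes of at least 50 CPM, 5.45% were higher and 3.28% lower in naive CD301b-high cDC2s than in other DCs, and 1.8% and 0.901% in papain ones. Among 17 partners of D cyclins, 1 of 3 genes of at least 50 CPM in the naive library was higher in CD301b-high cDC2s than in other DCs, none was lower, and none of 5 in the papain library changed by 1.5-fold. The cyclin-dependent kinase inhibitor gene *Cdkn1a* had the highest ratio of that list. It had 1164 CPM in naive CD301b-high cDC2s against 745 CPM, and 1089 against 802 CPM in the papain library. The D cyclin *Ccnd1* stood at 59.8 against 61.7 CPM in the naive and 102 against 91.4 CPM in the papain library, and *Ccnd3* at 6.48 against 12.4 and 7.91 against 8.57 CPM.

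Of the 12 listed dynein light chain and dynein-2 genes none of the 3 that passed 50 CPM changed in either library, and *Dynlt3*, a relative of *Tctex1d2*, had 25.0 against 24.8 and 30.7 against 33.6 CPM. *Wdr60*, a dynein-2 subunit gene with the lowest ratio of the list, was rare, at 0.438 against 2.41 CPM in the naive and 1.09 against 1.95 CPM in the papain library. Of 7 genes for the *Grasp* relative *Cytip*, cytohesins and ARFs, none of the 4 that passed changed, and *Cytip* itself, which encodes a cytohesin-binding protein of leukocytes, had 678 against 530 and 479 against 514 CPM. Of 11 listed aspartic proteases none of 2 in the naive and none of 1 in the papain library passed the fold, while *Napsa*, encoding napsin A, was 21.0 against 48.8 CPM in the papain library. *Napsa* was also the member of its list highest in CD301b-low against CD301b-intermediate cDC2s, at 142 against 70.2 CPM in the naive and 54.1 against 26.0 CPM in the papain library. Between CD301b-low and CD301b-intermediate cDC2s no other gene of the 5 lists passed the threshold, beside 2.54% higher and 1.82% lower of all genes in the naive and 1.58% and 1.85% in the papain library. Of 9 listed MYND domain genes 1 passed the filter in each library and did not change. The median log2 ratios of the 5 lists in CD301b-high cDC2s against other DCs lay between -0.25 and 0.22. For all genes of at least 50 CPM the medians of that contrast were 0.03 and 0.01 in the naive and papain libraries.

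Between the libraries more of these genes passed the threshold, where 19.0% to 26.8% of all genes did. Of the D cyclin partners 2 of 5 were higher in the papain library in each cDC2 class and in LCs, and 1 of 3 in cDC1s. Of the dynein genes 2 of 3 were higher in CD301b-low cDC2s and 1 of 3 in LCs. Of 2 aspartic protease genes 1 was higher and 1 lower in CD301b-high and CD301b-intermediate cDC2s, 1 was lower in CD301b-low cDC2s and 1 higher in LCs. None of the *Cytip*, cytohesin and ARF genes or of the MYND domain genes passed it in any class.

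Across the 10 groups of 5 classes in 2 libraries, the log2 levels of *Asprv1* and *Zmynd15* had a Pearson correlation of 0.94 and those of *Grasp* and *Tctex1d2* of 0.92, and the other 8 pairs lay between 0.08 and 0.39. These points share libraries and depth, and the values are descriptions. Among 3288 genes of at least 50 CPM in a group, the genes most alike were *Mxd1* (0.97), *Spop* and *Mrps7* (both 0.96) for *Asprv1*, and *Tmem19*, *Mxd1* and *Prpsap1* (all 0.97) for *Zmynd15*. *Mxd1*, encoding a MAX-binding repressor, thus appeared for both, with 694 CPM in naive and 904 CPM in papain cDC1s against 269 and 280 CPM in CD301b-high cDC2s. *Brd1*, *Cd2ap* and *Tsc22d3* (all 0.94) were most like *Grasp*, *Cd2ap* (0.96), *Pcyt1a* (0.96) and *Map3k1* (0.93) most like *Tctex1d2*, and *Lpp* (0.94), *Plgrkt* (0.90) and *Tpm3-rs7* (0.88) most like *Ccnd2*. *Pcyt1a*, an enzyme gene of phosphatidylcholine synthesis that starts 1821 bases past the end of *Tctex1d2*, rose from 9.3 CPM in naive and 9.9 CPM in papain CD301b-high cDC2s to 25.0 and 45.2 CPM in CD301b-low cDC2s and 28.2 and 69.2 CPM in LCs.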

How the data were processed

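Each library was deposited as a table of cells by genes holding log2 values, which the authors made in Partek Flow from Cell Ranger 3.0.1 counts on mm10 as log2(CPM + 1), beside a deposited count of expressed genes and natural log antibody values (12 antibodies) that the authors normalized. Reads were 10x 3′ UMIs. From the log2 values the UMIs of each cell were recovered (100% of values up to 50 UMIs within 0.02 of a whole number). The libraries held 53095046 and 122133401 UMIs, of which the listed genes made up 94.2% and 94.9%. UMIs were summed over the authors' antibody classes and mRNA clusters and divided by summed depth. Cells were not used as replicates, and neither a test nor a doublet caller was run. The authors' *Cd3e* and *Trac* marking was used for cells with T cell transcripts. Intervals were 95% exact Poisson (levels), conditional binomial (ratios) and Clopper-Pearson (shares). Calls needed 50 CPM in the higher group and a 1.5-fold ratio of CPM + 1. Alternatives added 1 or 10 CPM, averaged cells, filtered cells (500 genes, 10% mitochondrial UMIs), left out cells with T cell transcripts or the deepest 5%, or used CD301b tertiles, and for shares of cells needed 2 UMIs or thinned cells. The 5 genes and all lists were chosen with earlier results of these data known. Named besides the 5 were the gene next in rank, the 3 most alike genes of each, and family genes that were the highest or lowest of their list or close relatives. Python 3.11.15, numpy 2.4.6, scipy 1.17.1 and pandas 2.3.3 were used, and the code was tested on simulated data. The summed level of 1 fixed marker list is not reported here.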

Additional observations from a re-analysis of the deposited data

Results flagged for a closer look

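*Asprv1* stood out because the papain to naive ratio pointed in opposite directions in different classes: it was 2.004 in CD301b-intermediate cDC2s, 3.32 in CD301b-low cDC2s and 3.47 in cDC1s, but 0.343 in LCs and 0.761 (0.592 to 0.988) in CD301b-high cDC2s. Without papain cluster 2.4 the CD301b-low ratio was 1.64. The difference was not tested, since there is 1 library per condition. *Ccnd2* stood out in cells outside the classes compared above: the cells without an antibody class had 101 CPM in the naive and 236 CPM in the papain library, above every class. Among these cells, *Ccnd2* was at 258 CPM in the 237 naive and 313 CPM in the 241 papain cells with a *Cd3e* or *Trac* UMI, and at 28.5 and 59.6 CPM in the others.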

How the results depend on the processing

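Of 340 alternative values of the 45 log2 ratios of CPM, 254 stayed inside the counting interval of the value given above, 83 moved beyond it and 3 changed direction; the cause was not tested. The filter on cells, which removed 87 cells, moved none of the 45. With 1 CPM added to both levels the ratio of papain CD301b-high cells to other DCs was -3.03 for *Asprv1*. With 10 CPM added the ratio of naive CD301b-high cells to other DCs was -2.10 for *Asprv1* and -1.54 for *Grasp*. For papain CD301b-high cells to other DCs it was -1.99 for *Asprv1*, -1.65 for *Grasp*, -0.92 for *Zmynd15*, -0.76 for *Ccnd2* and -0.71 for *Tctex1d2*. 0.54 for *Asprv1* and 1.26 for *Grasp* was found for naive CD301b-low to CD301b-intermediate cells. For papain CD301b-low to CD301b-intermediate cells it was 1.29 for *Asprv1*, 1.17 for *Grasp*, 0.97 for *Ccnd2* and 0.95 for *Tctex1d2*. 0.50 for *Asprv1* was found for papain to naive CD301b-intermediate cells. For papain to naive CD301b-low cells it was 1.25 for *Asprv1*. -1.20 for *Asprv1* and 1.51 for *Ccnd2* was found for papain to naive LC cells. With cells averaged the ratio of naive CD301b-high cells to other DCs was -1.97 for *Grasp* and -1.30 for *Zmynd15*. For papain CD301b-high cells to other DCs it was -3.57 for *Asprv1*, -1.06 for *Zmynd15*, -1.19 for *Ccnd2* and -1.01 for *Tctex1d2*. 1.06 for *Ccnd2* was found for naive CD301b-low to CD301b-intermediate cells. For papain CD301b-low to CD301b-intermediate cells it was 2.41 for *Asprv1*, 1.38 for *Grasp*, 0.95 for *Zmynd15* and 1.25 for *Ccnd2*. 0.47 for *Asprv1*, 0.69 for *Grasp* and 0.72 for *Ccnd2* was found for papain to naive CD301b-intermediate cells. For papain to naive CD301b-low cells it was 0.52 for *Grasp*, 0.88 for *Zmynd15* and 0.90 for *Ccnd2*. 2.01 for *Asprv1* and 0.76 for *Grasp* was found for papain to naive cDC1 cells. For papain to naive LC cells it was -0.98 for *Asprv1* and -0.32 for *Zmynd15*. Without cells with T cell transcripts the ratio of naive CD301b-high cells to other DCs was -0.20 for *Ccnd2*. For papain to naive CD301b-low cells it was 0.94 for *Ccnd2*. -0.20 for *Zmynd15* and 2.12 for *Ccnd2* was found for papain to naive cDC1 cells. Without the deepest 5% of cells the ratio of naive CD301b-low to CD301b-intermediate cells was 1.57 for *Grasp*. For papain CD301b-low to CD301b-intermediate cells it was 2.18 for *Asprv1*. 0.54 for *Asprv1* and 0.62 for *Grasp* was found for papain to naive CD301b-intermediate cells. For papain to naive LC cells it was -1.29 for *Asprv1* and -0.34 for *Zmynd15*. With CD301b tertiles the ratio of naive CD301b-high cells to other DCs was -3.60 for *Asprv1*, -1.30 for *Zmynd15* and -0.85 for *Ccnd2*. For papain CD301b-high cells to other DCs it was -1.77 for *Grasp*, -0.87 for *Zmynd15* and -0.79 for *Tctex1d2*. 2.32 for *Asprv1*, 1.19 for *Grasp*, 0.74 for *Zmynd15*, 1.01 for *Ccnd2* and 0.98 for *Tctex1d2* was found for papain CD301b-low to CD301b-intermediate cells. Without cluster 2.4, chosen after seeing the data, the ratio of papain CD301b-high cells to other DCs was -1.76 for *Grasp*, -0.88 for *Zmynd15*, -0.62 for *Ccnd2* and -0.64 for *Tctex1d2*. For papain CD301b-low to CD301b-intermediate cells it was 0.89 for *Asprv1*, 0.75 for *Grasp*, 0.39 for *Zmynd15*, 0.35 for *Ccnd2* and 0.39 for *Tctex1d2*. -0.18 for *Zmynd15* was found for papain to naive CD301b-intermediate cells. For papain to naive CD301b-low cells it was 0.72 for *Asprv1*, -0.25 for *Grasp*, 0.26 for *Zmynd15*, -0.23 for *Ccnd2* and -0.40 for *Tctex1d2*. Without cluster 1.5, also chosen after seeing the data, the ratio of naive CD301b-low to CD301b-intermediate cells was 0.60 for *Asprv1*, 1.13 for *Grasp* and 0.19 for *Zmynd15*. Papain to naive it was 0.55 for *Grasp* and -0.26 for *Zmynd15* in CD301b-high, 0.74 and -0.23 in CD301b-intermediate, and 2.03 for *Asprv1*, 0.87 for *Grasp*, 0.38 for *Zmynd15* and 0.64 for *Tctex1d2* in CD301b-low cells. Of 100 alternative shares of cells with a UMI (at least 2 UMIs, or thinned cells), 89 moved beyond their intervals, as fewer UMIs per cell are then counted. No paired analysis was possible because each condition is 1 library, with no replicate number in its labels. The fewest UMIs behind a class level were 53 for *Ccnd2* in naive LCs and 73 and 81 for *Asprv1* in naive CD301b-intermediate and CD301b-high cDC2s.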
